A study of Rattus norvegicus with 7 samples.

Results

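Fgf2, the gene of basic fibroblast growth factor (FGF-2), was read here from 1 probe, A_44_P212850, of the 38321 probes of the array that are not controls. The probe was chosen by its name, and its gene was read from the RefSeq accession that the array files give for it, matched to RefSeq's rat genes (assembly GRCr8). Fgf2 was 1 of 38 genes that could be named in this way. Of the 38321 probes, 38282 were not named here, and whether any of them also measures Fgf2 is not known. The arrays came from a study of bone cancer pain (BCP) that profiled gene expression in the dorsal root ganglia (DRG), where the cell bodies of sensory neurons lie. BCP rats received live rat mammary carcinoma cells in the tibia, and sham rats received heat-inactivated cells of the same line in the left tibia. The ipsilateral DRG were taken on postoperative day (POD) 12 from 4 sham and 3 BCP rats, which the labels give as female and the methods as Sprague Dawley; their age was not given in the sources used here. Each rat had 1 array, read in a single colour (Cy3), and the BCP arrays carry the replicate numbers 2 to 4. Sham rats thus also carried an injection into the bone, and no uninjected rats were among the arrays.

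FGF-2 is a secreted growth factor that binds heparan sulfate on the cell surface and signals through the FGF receptors, which are receptor tyrosine kinases that activate the MAP kinase pathway. In sensory ganglia it is made by neurons and by the satellite glia around them, and it is known to increase after injury of a peripheral nerve. In the RefSeq annotation the 3′ end of Fgf2 overlaps Nudt6, a gene on the opposite strand. Where on the transcript the probe lies was not given in the sources used here.

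Fgf2 was detected in the DRG of every rat. The probe was printed as 10 spots on each array, and all 70 spots were well above background by the flag of the scanner software, with 0 saturated. The median signal of the spots was 9.0 to 13.1 times the local background on the sham arrays. It was 13.4 times the background on the array of BCP replicate 2, 10.8 times on that of BCP replicate 3 and 5.65 times on that of BCP replicate 4. The scanner software flagged 5 of the 70 spots as outliers, and the other 65 were used. The 5 flags all fell on the same spot, the nearest to the first row of the array, on 5 of the 7 arrays.

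Before normalization between arrays, the mean processed intensity of Fgf2 was 167 in sham replicate 1, 140 in sham replicate 2, 169 in sham replicate 3 and 116 in sham replicate 4. It was 206 in BCP replicate 2, 176 in BCP replicate 3 and 79.1 in BCP replicate 4. The lowest of these intensities came from an array that was dim as a whole. The median intensity of the array of BCP replicate 4 was 37.4, against 69.6 to 76.2 on the other 6 arrays, and 71.4% of its spots were well above background, against 86.6% to 89.0%. Relative to the median of its own array, Fgf2 stood at 2.12 in BCP replicate 4, inside the range of the sham arrays from 1.66 to 2.34. The ratio was 2.78 in BCP replicate 2 and 2.53 in BCP replicate 3, above all sham arrays.

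**Figure D1:**
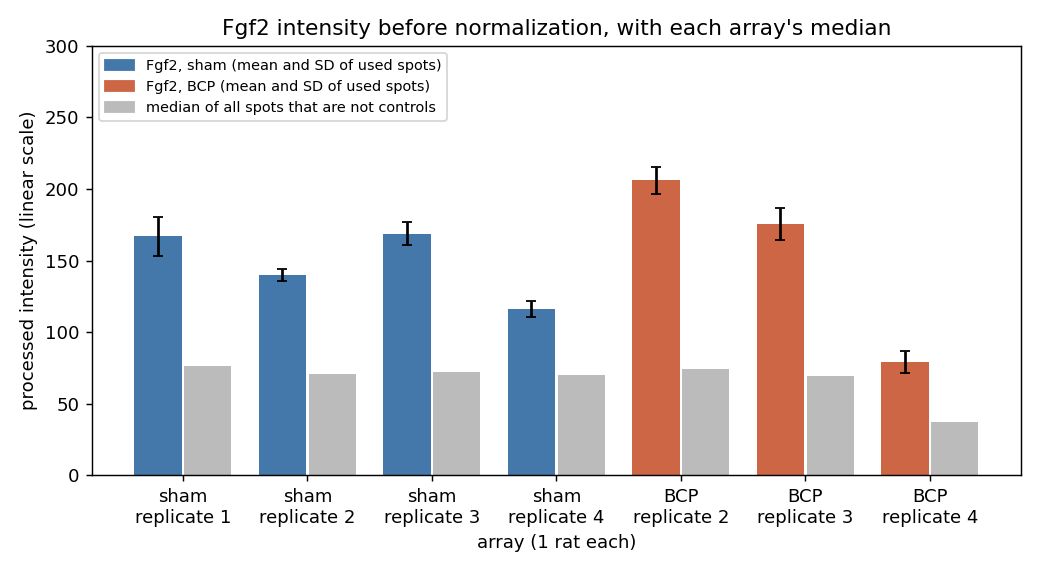
Processed intensity of Fgf2 on a linear scale for each array, as the mean and SD of the spots used, beside the median intensity of all spots of that array that are not controls (grey). BCP replicate 4 had the lowest Fgf2 intensity, 79.1, and the lowest array median, 37.4.

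Log2 intensities were then quantile normalized, so that all arrays share 1 distribution, and the spots of the probe were averaged. The normalized log2 level of Fgf2 was 7.17 in sham replicate 1, 7.02 in sham replicate 2, 7.28 in sham replicate 3 and 6.77 in sham replicate 4. The sham level was 7.06 ± 0.22 (SD, n = 4). The normalized log2 level was 7.53 in BCP replicate 2, 7.40 in BCP replicate 3 and 7.04 in BCP replicate 4, with a mean of 7.32 ± 0.25 (SD, n = 3). BCP replicates 2 and 3 lay above all 4 sham arrays, whereas BCP replicate 4 lay within the sham range, so the groups overlapped. The range over the arrays was 0.50 in the sham group and 0.49 in the BCP group.

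**Figure D2:**
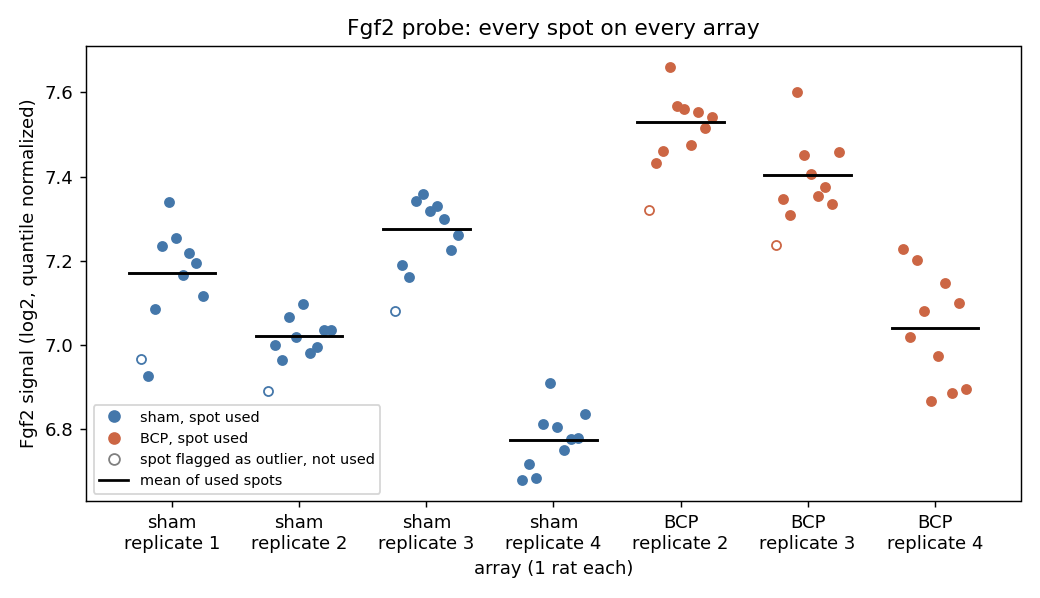
Normalized log2 signal of each of the 10 Fgf2 spots on the 4 sham and 3 BCP arrays; open circles are spots flagged as outliers and not used, and the black line is the mean of the spots used. The means ran from 6.77 to 7.28 in sham rats and from 7.04 to 7.53 in BCP rats.

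The spread between arrays of a group was larger than the spread between spots of an array. The SD of the spots within an array lay between 0.04 and 0.13 on the log2 scale, with a mean of 0.08, while the pooled SD between arrays of the same group was 0.23. With 1 array per rat, differences between rats and differences between arrays cannot be told apart. Spots of 1 array share the RNA of 1 rat, so their agreement bears on the reading of the array and adds no rats to the comparison. At each of the 10 spot positions, outlier spots included, the mean over the BCP arrays was higher than the mean over the sham arrays, by 0.14 to 0.36 on the log2 scale.

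BCP minus sham, the log2 difference of Fgf2 was 0.26 (standard error 0.17), with a 95% interval from -0.13 to 0.66 (limma, moderated over all 34407 probes kept). This is a 1.20-fold difference with an interval from 0.916-fold to 1.57-fold. The interval holds 0, and both a 2-fold rise and a 2-fold fall lie outside it. Fgf2 was not called changed, with an adjusted p of 0.332 (limma, Benjamini-Hochberg), where a call needed an adjusted p below 0.05 together with a difference of 2-fold or more. By the same rule 2.58% of the probes kept were called, 2.27% higher and 0.308% lower in BCP. These shares stand for 781 probes higher and 106 lower, and they moved when single arrays were left out. Leaving out any 1 array other than BCP replicate 4 moved the total of 887 by over 1.5 times. The counts were then between 503 and 1366, with 36 to 313 probes lower. Each of these fits also had 1 array fewer, and the part of this in the counts was not tested. The exact permutation test of the difference of the group means, two-sided over all 35 assignments of the arrays, gave p = 0.20, and the smallest p this design allows is 0.0286. The difference of 0.26 was slightly larger than the pooled SD between arrays, 0.23, and passed neither test. A p that misses the threshold does not show that Fgf2 was equal in the groups, and the interval gives the sizes of change that remained compatible with these arrays. The comparison rests on 3 arrays against 4. The interval reached 0.39 on the log2 scale to either side, beside a median of 0.36 over all probes kept. Under 21 other settings of the processing its reach lay between 0.26 and 0.80. The lowest came with normexp on the median signal, which changed the background correction and the signal used at once. It also added an offset of 50, which by construction narrows log2 differences at low signal, so its reach is not on the same scale. The highest came with no normalization between arrays.

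The difference depended on single arrays. Without BCP replicate 4, the dim array, it was 0.41 with an interval from 0.06 to 0.76, which does not hold 0, and Fgf2 was still not called (adjusted p = 0.0988, limma). Without BCP replicate 2 the difference was 0.16, with an interval from -0.28 to 0.60, and without sham replicate 4 it was 0.17, with an interval from -0.22 to 0.56. Over the same 21 settings the adjusted p lay between 0.0988 and 0.934. All sham arrays shared 1 scan and all BCP arrays shared another, and group and scan therefore cannot be told apart. In whole ganglia, a change in the number of cells that make Fgf2 and a change in its RNA per cell cannot be told apart either.

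**Figure D3:**
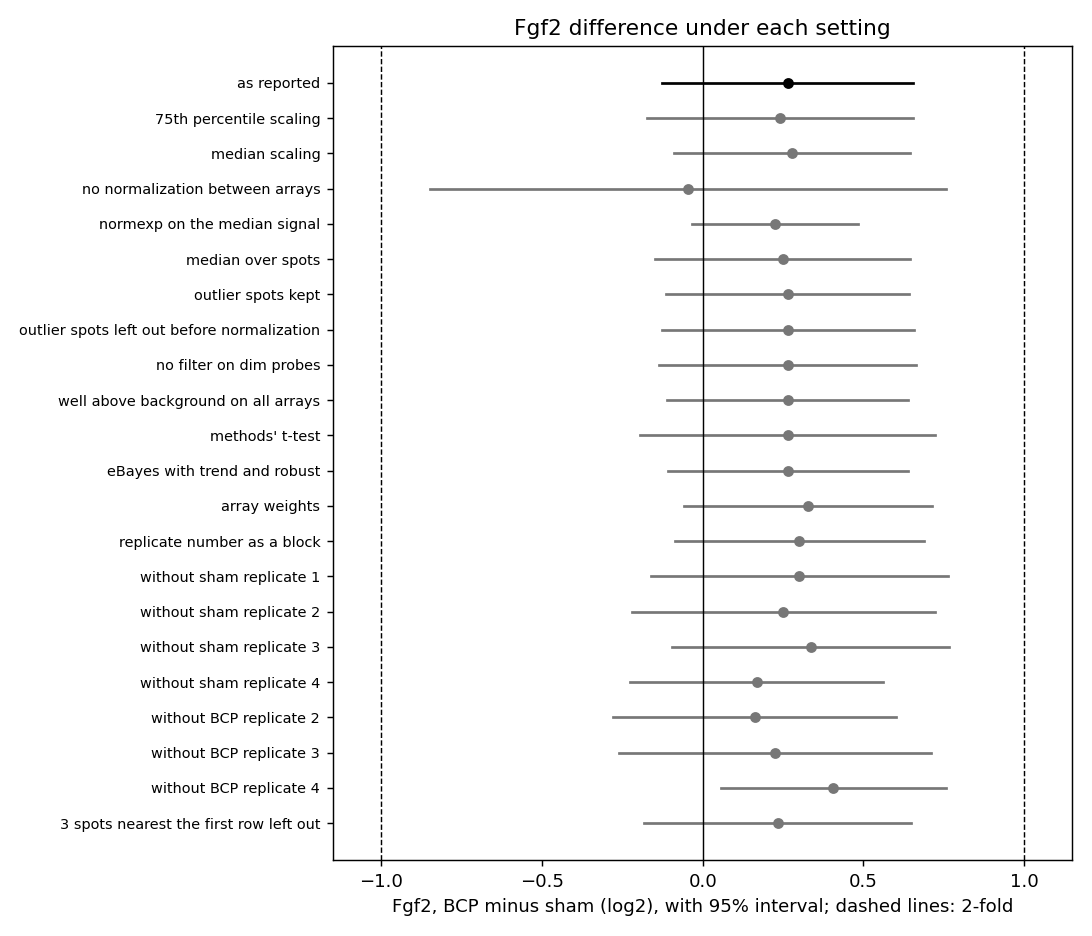
Log2 difference of Fgf2, BCP minus sham, with its 95% interval as reported (black) and under each of 21 other settings (grey); the dashed lines mark a 2-fold fall and a 2-fold rise. All 21 intervals lie between the dashed lines, the difference is below 0 only with no normalization between arrays, and the interval does not hold 0 only without BCP replicate 4.

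Of 48 genes of a list of FGF ligands, receptors, co-receptors, adaptors, targets and inhibitors, only Fgf2 itself could be named on the array, so that its receptors and targets were not analysed here. Of 23 genes that respond to nerve injury in the DRG, 0 could be named. The same was true of 60 markers of sensory neurons, glia, immune cells, vessels, fibroblasts, blood, tumour cells and muscle, so the labelled tissue could not be checked against them.

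Over the 7 arrays, the named genes with the highest Pearson's r between their log2 levels and those of Fgf2 were Ptk2b, Rplp1, Rpl13a, Pop7 and Slc28a2. These correlations are a description over 7 arrays that share the groups and the scans. Ptk2b, a tyrosine kinase that responds to calcium, had the highest Pearson's r with Fgf2, at 0.76 (Spearman's rho 0.68). As with Fgf2, BCP replicates 2 and 3 lay above the 4 sham arrays at Ptk2b, with log2 levels of 7.16 and 7.34 against 6.73 to 6.92, and BCP replicate 4 did not, at 6.53. The BCP minus sham difference of Ptk2b was 0.22 (95% interval -0.23 to 0.67, adjusted p = 0.474, limma). The ribosomal protein genes Rplp1 and Rpl13a followed with r of 0.73 and 0.64, and Pop7, of the RNase P complex, with 0.60. Slc28a2, a nucleoside transporter, had an r with Fgf2 of 0.59. This order holds the difference between the groups, and with the mean of each group taken out it was another. The r with Fgf2 was then 0.70 for Ptk2b, 0.60 for Rplp1, 0.39 for Rpl13a, 0.58 for Pop7 and 0.28 for Slc28a2. The highest r within groups were those of P2rx2, an ATP-gated ion channel of sensory neurons, at 0.93, of Odf2l at 0.92 and of Dlg4, a scaffold protein of synapses, at 0.74, which are named after their values were seen. Of the 3 BCP arrays, 2 had P2rx2 well above background. P2rx2, Odf2l and Dlg4 each had their lowest level on the array of BCP replicate 4, the dim array. That array stood at 124 on the first principal component (60.8% of the variance), against -42.35 to 29.37 on the other arrays. Over the 7 arrays, with the group means left in, the r of P2rx2 with Fgf2 was -0.09, that of Odf2l 0.51 and that of Dlg4 -0.03. Their BCP minus sham differences were -0.54 for P2rx2 (95% interval -0.87 to -0.21, adjusted p = 0.0623, limma), -0.38 for Dlg4 (95% interval -0.71 to -0.05, adjusted p = 0.140, limma) and -0.06 for Odf2l (95% interval -0.29 to 0.17, adjusted p = 0.693, limma), all with the opposite sign to that of Fgf2. At P2rx2 and Dlg4 the 3 BCP arrays lay below the 4 sham arrays, and at Rplp1, Rpl13a and Slc28a2 they lay above them, where 30.6% of all probes kept had no overlap between the groups and 2.58% were called. The lowest r over the 7 arrays were those of Ndfip2, an adaptor of ubiquitin ligases, at -0.83, of Sdha, a subunit of succinate dehydrogenase, at -0.81 and of Cse1l, a nuclear transport factor, at -0.77. Within groups these were -0.75, -0.76 and -0.65. The lowest r within groups was that of Pdcd10, at -0.80, with an r of -0.52 over the 7 arrays. This gene was also named after its values were seen, and its level was highest on the array of BCP replicate 4. Its BCP minus sham difference was 0.04 (95% interval -0.19 to 0.28). By limma, 0 of these 12 genes were called changed, against the 2.58% of all probes kept and 3 of the 37 kept probes that could be named. Their differences lay between -0.54 and 0.86 on the log2 scale. That of 0.86 was Slc28a2, whose interval, from 0.36 to 1.35, does not hold 0 (adjusted p = 0.0556, limma).

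**Figure D4:**
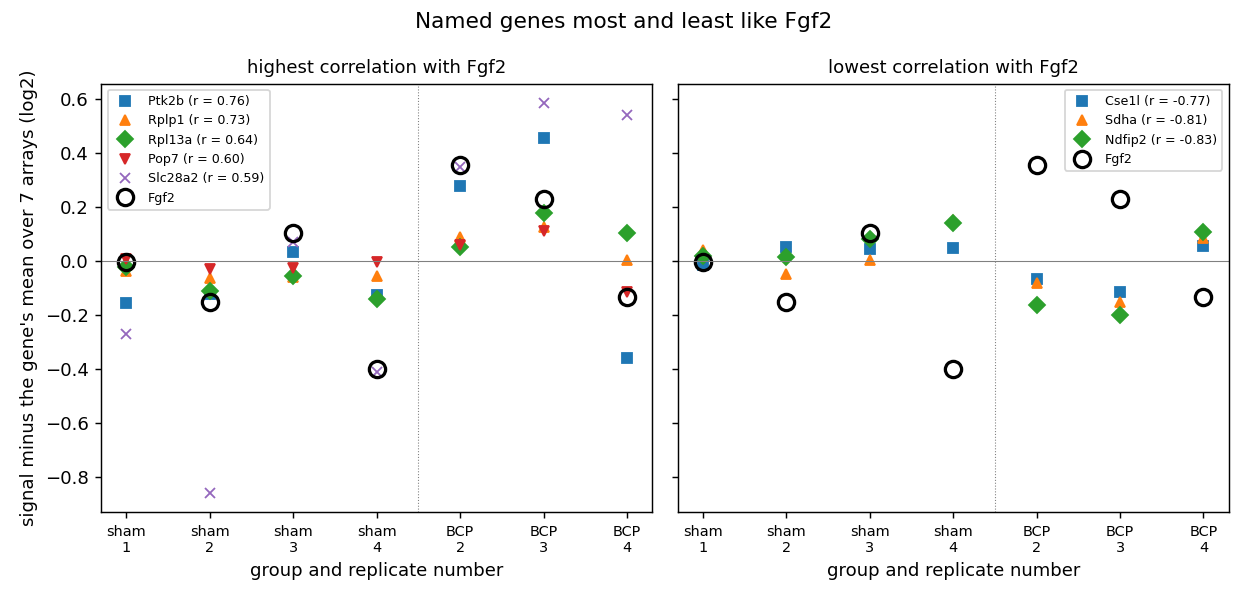
Normalized log2 level of each gene minus its own mean over the 7 arrays, for Fgf2 (open circles) and the 5 named genes with the highest (left) and the 3 with the lowest (right) Pearson's r with it. Ptk2b, with r of 0.76, was high in BCP replicates 2 and 3 and low in BCP replicate 4, and Ndfip2, with r of -0.83, ran the other way.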

How the data were processed

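The deposited intensities of the 7 arrays are the authors' output of Agilent Feature Extraction (11.0.1.1 per the submitters' processing notes), corrected for background within each array. The authors also deposited log2 values, quantile normalized in GeneSpring; these correlated with the values computed here at r between 0.989 and 0.995 across probes, and were used as an alternative. Log2 of the processed intensity was quantile normalized over 41623 spots that are not controls. After this, outlier spots (87 to 131 on an array) were dropped, and the mean was taken over the spots of a probe. Probes with over 50% of spots well above background on at least 3 of 7 arrays were kept (34407). The group comparison used limma 3.58.1 (R 4.3.3; lmFit, then eBayes), with no covariate. It was first tested on simulated data. Of 44 RefSeq accessions, 39 were matched to a gene, and 37 of these probes were kept. The genes named beside Fgf2 are the members of the FGF and nerve injury lists that could be named, and the 5 highest and 3 lowest in Pearson's r with Fgf2. P2rx2, Odf2l, Dlg4 and Pdcd10 fall outside this rule: they were picked with their values in view. The gene and the lists were chosen with earlier results of these data known. Alternatives changed the scaling, background correction, spots, filter, test, block and arrays used. The normexp alternative (offset 50) also took the median signal of a spot in place of its processed intensity.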

Additional observations from a re-analysis of the deposited data

Results flagged for a closer look

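In 15 tests of whether a sham array stood apart, over Fgf2, the 12 genes named beside it and 2 measures of array signal, 1 value did so. Chance gives about 1 in 20 for each single test, so 1 value among 15 tests is not rare. The tests are also not independent, since the 12 genes were picked for their r with Fgf2. The value was that of Cse1l in sham replicate 1, at a log2 level of 11.42 against 11.48 to 11.49 in the other sham arrays, a gap of 0.932 of the range. Fgf2 itself was not among the values that stood apart. Groups of 3 arrays were not tested.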

How the results depend on the processing

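The log2 difference of Fgf2 was above 0 under 20 of 21 other settings and called under 0 of them. With no normalization between arrays it was -0.0455; there the median difference of all probes kept was -0.38, against -0.07 as reported, and relative to that median Fgf2 stood at 0.33 under both. Leaving out single arrays gave 0.16 to 0.41, and leaving out the 3 spots nearest the first row, chosen after seeing the data, gave 0.23. The sham level was 6.99 to 7.16 with single sham arrays left out, and -1.51 with 75th percentile scaling, where by construction it is relative to that percentile. The deposited log2 table has 0 rows for this probe, and averaging several probes of a gene needs more than 1, so neither was run for Fgf2.

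The count of probes called changed, 887 as reported, was within 1.5 times that under 9 of 19 other settings. As reported 781 were higher and 106 lower. The count was 356 with no normalization (36 lower). It was 485 with normexp on the median signal (45 lower), which changed the background correction and the signal used at once and added an offset. The methods' t-test gave 581 after Benjamini-Hochberg (44 lower) and 1052 at the methods' own threshold (173 lower). Without single arrays the count was 503 to 1366 (467 to 1053 higher, 36 to 313 lower), highest without BCP replicate 2. The cause of these moves was not tested.

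Replicate numbers 2, 3 and 4 occur in both groups. Across probes, the deviations of arrays with equal numbers correlated at 0.12, -0.0036 and -0.04. These values give no ground to pair the arrays, and with so few arrays they cannot show that the arrays are unpaired. A block for replicate number gave an Fgf2 difference of 0.30 and 288 called probes, 282 higher and 6 lower. Sham replicate 1 is alone in its block and so does not enter that comparison. With no block and sham replicate 1 left out, the difference was also 0.30, with 589 called probes, 544 higher and 45 lower. Signal over background was lowest in BCP replicate 4.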

Other observations

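The lowest Fgf2 level of each group came from replicate 4, 0.29 below the group mean in sham and 0.28 below it in BCP. The replicate number runs with the place of the array on its slide, and the part of that place in the Fgf2 level was not tested.

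The 3 Fgf2 spots nearest the first row of the array had means over the sham arrays of 6.90 to 6.97 on the log2 scale, below the other 7 spots at 7.06 to 7.16. On the array of BCP replicate 4 the order differed, and the spot nearest the first row was the highest of the 10, at 7.23.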
